A study of Homo sapiens with 6 samples.

Results

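Genes that set how long N-Myc protein lasts were followed in neuroblastoma cells with and without knockdown of BCAT1. The 10 members were named by symbol (AURKA, PLK1, GSK3B, FBXW7, HUWE1, USP7, USP28, SET, CIP2A and PPP2R5A), and each matched 1 row of the 64252 in the count table by its Ensembl ID. Messenger RNA was counted in SK-N-BE(2), an established human neuroblastoma line with amplified MYCN, in 6 libraries. Of these, 2 carried a control short hairpin RNA (shControl, treatment shNC), 2 carried hairpin 1 against BCAT1 (shBCAT1#1) and 2 carried hairpin 2 (shBCAT1#2). The labels give no time after transfection, no vector and no clone, and do not say whether the replicates were separate cultures. The tests therefore speak to the spread among these libraries alone, and that spread may be technical. BCAT1 is the cytosolic enzyme that moves the amino group of branched-chain amino acids, and the series title places it upstream of N-Myc stabilization. The data hold transcripts only, so no protein level, half-life or enzyme activity was measured.

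N-Myc is a short-lived transcription factor, and its turnover is set by a sequence of marks on the protein. A priming phosphate allows the kinase GSK3B to add another. The phosphatase PP2A then removes the priming phosphate, the ubiquitin ligase FBXW7 recognises the form that keeps the mark of GSK3B, and the proteasome destroys it. Aurora kinase A (AURKA) binds N-Myc and shields it from FBXW7, and PLK1 lowers FBXW7 itself. HUWE1 is a further ligase that attaches ubiquitin to N-Myc, while the deubiquitinases USP7 and USP28 take ubiquitin off. SET and CIP2A hold PP2A back, and PPP2R5A is a subunit that directs PP2A to its substrates. By these textbook roles 6 members stabilize N-Myc (AURKA, PLK1, USP7, USP28, SET and CIP2A) and 4 destabilize it (FBXW7, GSK3B, HUWE1 and PPP2R5A).

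Sequences upstream of the RefSeq starts are shown for PLK1 and USP28, the members with 1 start whose window held a motif searched for here. Both carry CACGTG, the E-box that MYC proteins bind with MAX. Sequences came from RefSeq (GRCh38.p14), which held 21 start sites for 9 of the 10 members. Windows were the 250 bases before each start, searched on both strands for CACGTG and for TTTGAA, an element of genes that peak in G2 and mitosis. These motifs do not overlap each other. In GENCODE release 29 all 250 bases of the PLK1 window are annotated exon of PLK1: the longer stretch shown lies in a transcript with a retained intron that starts further upstream, and the shorter one in the 5′ UTR of the coding transcript. The USP28 window holds 0 annotated exon bases. Capitals mark the matches, and each window reads 5′ to 3′ on the strand of its gene.
PLK1, chr16:23678639-23678821, plus strand: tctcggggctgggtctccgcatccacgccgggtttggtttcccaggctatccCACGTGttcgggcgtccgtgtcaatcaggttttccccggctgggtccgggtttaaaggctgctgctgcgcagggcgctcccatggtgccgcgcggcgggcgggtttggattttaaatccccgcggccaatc
PLK1, chr16:23678848-23678877, plus strand: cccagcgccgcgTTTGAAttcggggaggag
USP28, chr11:113875573-113875822, minus strand: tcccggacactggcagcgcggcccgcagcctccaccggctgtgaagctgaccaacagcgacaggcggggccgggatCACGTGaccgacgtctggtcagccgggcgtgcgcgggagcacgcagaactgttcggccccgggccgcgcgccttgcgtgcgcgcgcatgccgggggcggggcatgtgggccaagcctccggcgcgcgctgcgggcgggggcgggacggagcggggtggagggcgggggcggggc
CACGTG was found at 1 start each of PLK1, USP28 and SET, which is 3 of 21 member starts (14.3%), against 6.34% of all 35116 starts. TTTGAA was found at 1 start each of PLK1, FBXW7 and PPP2R5A, again 3 of 21, against 13.3% of all starts. In PLK1 it lay 29 to 24 bases before the start. A match describes the letters in the window and does not show that a factor binds there.

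Depth was similar across libraries, with totals between 32333416 (hairpin 1, replicate 2) and 39321388 counts (control, replicate 1), and the counts of single members ran from 1289 to 31313. BCAT1 mRNA stood at 459 and 475 CPM (counts scaled to the TMM-adjusted library size) in the control libraries, 55.8 and 55.3 with hairpin 1, and 116 and 111 with hairpin 2, so both labels matched their target and hairpin 1 left less of it. Of 12 markers of sympathetic neuroblastoma, 11 stood at 10 CPM or more in every library and INSM1 was at or near 0. Their summed level was 1906 to 1922 CPM in the controls, against 2002 to 2097 for hairpin 1 and 1388 to 1391 for hairpin 2. Among 14 markers of other cell types, CD3E, HBB and SOX10 were at 0 in all libraries, 2 to 4 reached 10 CPM, and the summed level, most of it COL1A1, was 299 to 328, 212 to 213 and 336 to 344 CPM. Whether the lower sum of neuroblastoma markers with hairpin 2 bears on the results for the members was not tested. In bulk RNA, fewer cells expressing a gene and less RNA per cell cannot be told apart.

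All 10 members were expressed and passed the filter on low counts. Levels can be compared between genes only per length, so CPM were divided by the kilobases of annotated exon (GENCODE release 29, hg38). On that scale SET was the most abundant member in control cells at 113 and 116 CPM per kilobase, and FBXW7 the scarcest at 3.32 and 3.21. PLK1 followed SET (41.8 and 39.3 CPM per kilobase), then AURKA (34 and 32.1), USP7 (27 and 27.5), HUWE1 (16.2 and 16.3) and CIP2A (11.6 and 12.1). PPP2R5A (9.99 and 10.3), GSK3B (9.6 and 10.2) and USP28 (9.66 and 9.82) lay so close together that their order was within the spread of the libraries. The ranges of all other neighbours in this order did not overlap in control cells. For scale, MYCN itself stood at 865 and 873 CPM per kilobase.

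**Figure D1:**
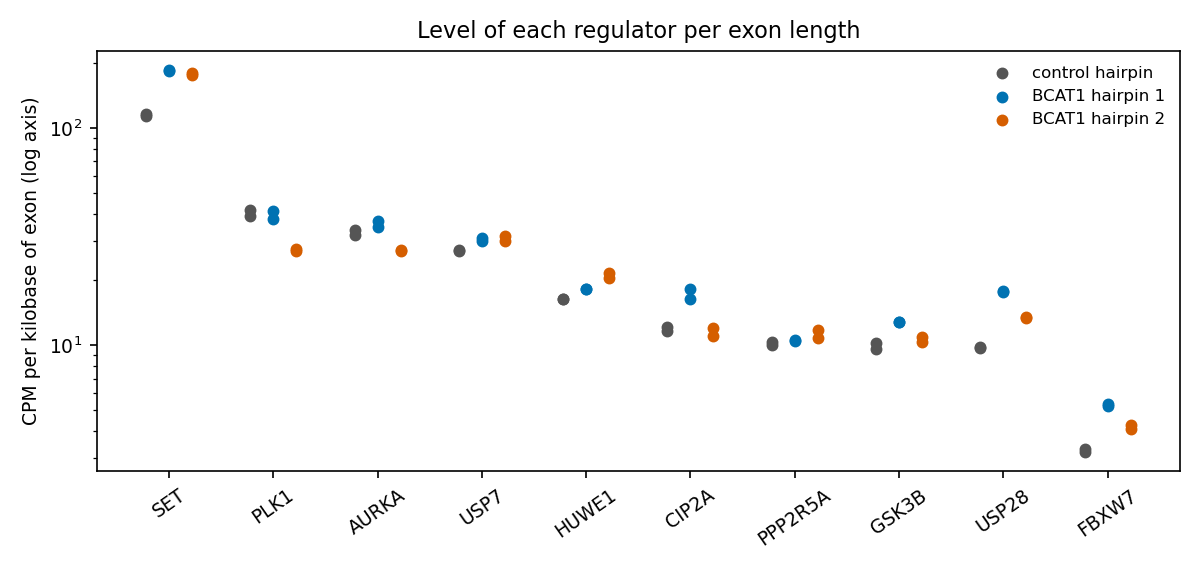
Level of each of the 10 regulators in CPM per kilobase of exon, on a log axis, with 1 point per library (2 per group). SET lies highest in every group and FBXW7 lowest, and USP28 moves from ninth place in control cells to the sixth in both knockdown groups, with hairpin 1 within the spread of CIP2A.

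The first comparison set the 4 knockdown libraries of both hairpins against the 2 control libraries. Of the 10 members 7 rose (FBXW7, GSK3B, HUWE1, USP7, USP28, SET and CIP2A) and PLK1 fell, at an adjusted p under 0.05 in edgeR's quasi-likelihood test over 18734 genes. The background was high: 50% of all tested genes were called, 23.6% as higher and 26.4% as lower. The members' median log2 fold change was 0.24, with a range from -0.3 to 0.66, beside -0.012 for all genes. Of the 6 stabilizing members 4 rose and 1 fell, and of the 4 destabilizing members 3 rose and 0 fell, with medians of 0.21 and 0.24. So in this comparison members with opposite roles toward N-Myc rose alongside each other. With the GC content and length offset described below, FBXW7 was the only destabilizing member still called higher (0.27, edgeR adjusted p = 0.00081). With that offset and hairpin 2 alone, FBXW7 was not called (0.08, edgeR adjusted p = 0.25) and GSK3B was called lower (-0.22, edgeR adjusted p = 0.0019). In 7 members all 4 knockdown libraries lay above both controls, and in 0 members all 4 lay below, against 22% and 23.6% of all genes (45.6% in either direction). These 7 differ from the 7 called genes: CIP2A was called while its libraries overlapped, and PPP2R5A did not overlap but was not called.

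**Figure D2:**
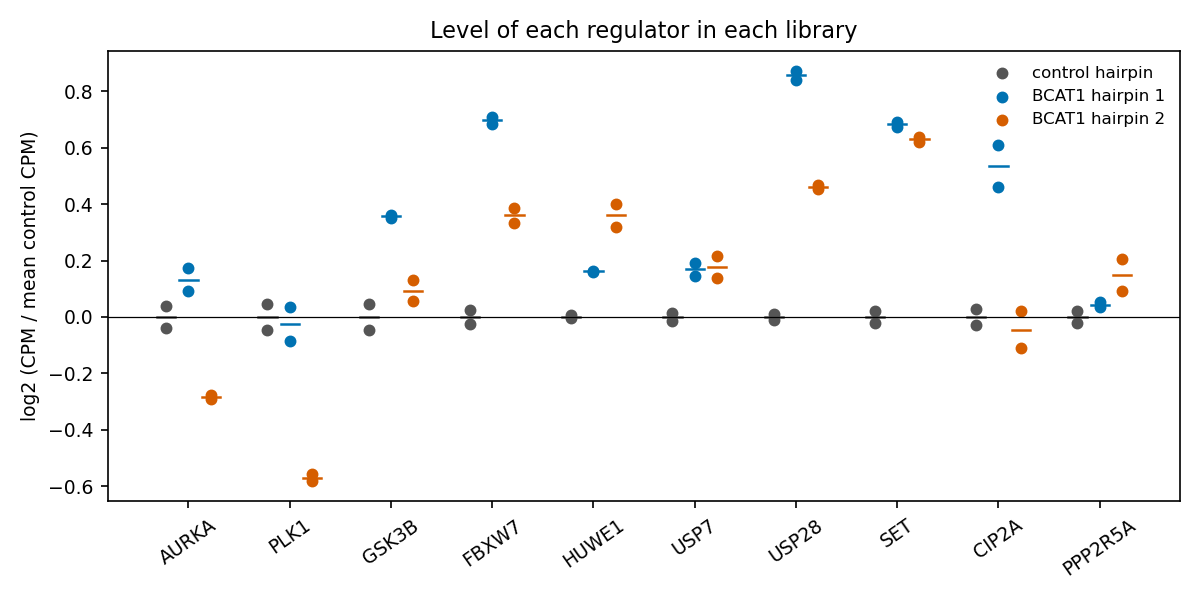
Log2 of each library's CPM over the mean CPM of the control libraries, for the 10 regulators. Points are single libraries, short lines are means of the log2 values of 2 libraries, and colours are the 3 groups. SET, USP28 and FBXW7 lie above control with both hairpins, and AURKA and PLK1 lie below it with hairpin 2.

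The size and even the direction of some of these estimates moved when a trend with base composition and length was removed. Across 17459 genes with both measures, log2 fold change over both hairpins had a Spearman correlation of -0.37 with GC content and 0.28 with exon length; genes are not independent replicates, so these are descriptions. HUWE1 has 17380 bases of exon and FBXW7 11095, and CIP2A has a GC content of 34.9%, whereas PLK1 has 57.1%. GSK3B (42.1%) and USP7 (45.7%) lie between these. When the smooth trend with GC content and length was removed from each library as an offset, 4 members were still called over both hairpins, 3 higher (SET, USP28 and FBXW7) and 1 lower (PLK1), where 47.6% of 17447 genes passed, 21.1% as higher and 26.6% as lower. In the same 17447 genes without the offset, 8 members were called, 7 higher and 1 lower. The share of all genes called in that fit was not recorded. Over the 18734 genes without the offset it was 50%, with 23.6% higher and 26.4% lower. Whether the trend is technical or part of the cells' response was not tested, so each member is given with and without the offset.

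**Figure D3:**
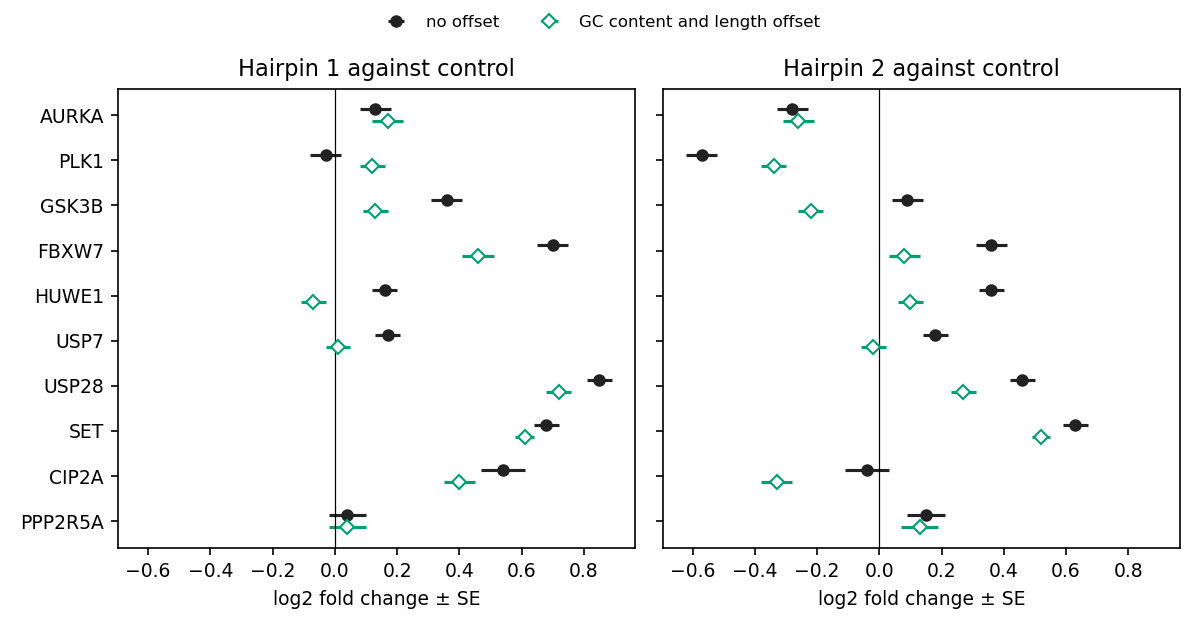
Log2 fold change of the 10 regulators with each hairpin against control (points, edgeR estimate; bars, standard error), without an offset (filled circles) and with the GC content and length offset (open diamonds). SET and USP28 stay well above 0 in both panels, while USP7 moves to about 0 and CIP2A with hairpin 2 moves from -0.04 to -0.33.

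Among the PP2A regulators, SET rose with each hairpin. SET (ENSG00000119335, chromosome 9, 128683424 to 128696400, plus strand), the PP2A inhibitor, stood at 491 and 505 CPM in control cells, 805 and 795 with hairpin 1 and 776 and 766 with hairpin 2. All 4 knockdown libraries lay far above both controls and close to each other. The rise was 1.61-fold with hairpin 1 (log2 fold change 0.68 with SE 0.04, edgeR adjusted p = 2.9e-06). Hairpin 2 gave 1.55-fold (0.63, SE 0.04, edgeR adjusted p = 6.7e-06). Their difference, -0.05 (SE 0.04), missed the threshold in edgeR (adjusted p = 0.28). With the offset the values were 0.61 and 0.52, still called, and the difference between the hairpins was then called as well (-0.09, SE 0.03, edgeR adjusted p = 0.035). Over both hairpins, 88.9% of tested genes had a lower log2 fold change than SET. SET has 19 named pseudogenes in the annotation, whose counts came to 0.237% to 0.31% of those of SET, so reads can be split between the copies only to an uncertain extent.

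CIP2A (ENSG00000163507, chromosome 3, 108549869 to 108589644, minus strand), the other PP2A inhibitor, separated the hairpins. It stood at 53.2 and 55.3 CPM in control cells, 82.8 and 74.6 with hairpin 1, and 55 and 50.2 with hairpin 2. Only the hairpin 1 libraries lay outside the range of the controls on the high side. CIP2A rose 1.45-fold with hairpin 1 (0.54, SE 0.07, edgeR adjusted p = 0.00024), while with hairpin 2 the log2 fold change was -0.04 (SE 0.07, edgeR adjusted p = 0.62). The direct difference, hairpin 2 against hairpin 1, was -0.58 (SE 0.07, edgeR adjusted p = 0.00017). Under the offset, CIP2A was called higher with hairpin 1 (0.4) and lower with hairpin 2 (-0.33, edgeR adjusted p = 0.00062), and over both hairpins it was not called (0.04). Over both hairpins without the offset it was also lost when replicate 1 of the control was left out (edgeR adjusted p = 0.061).

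PPP2R5A (ENSG00000066027, chromosome 1, 212285537 to 212361863, plus strand), a regulatory B56 subunit, was not called in any of the 4 comparisons, with or without the offset. It stood at 38.2 and 39.3 CPM in control cells, 40.2 and 39.7 with hairpin 1, and 44.7 and 41.3 with hairpin 2. The knockdown libraries lay just above the controls, and neither hairpin passed: hairpin 1 gave 0.04 and hairpin 2 gave 0.15 on the log2 scale (SE 0.06 each), with edgeR adjusted p-values of 0.59 and 0.073. With hairpin 2 it passed under a stricter filter on low counts (edgeR adjusted p = 0.043). Per exon length, SET exceeded PPP2R5A 11.3-fold in both controls, 17.6-fold in both hairpin 1 libraries, and 15.2-fold and 16.3-fold with hairpin 2. The ratio of CIP2A to PPP2R5A was 1.16 and 1.18 in control cells, 1.72 and 1.57 with hairpin 1, and 1.03 and 1.01 with hairpin 2.

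Both deubiquitinases rose, USP28 by far the more. USP28 (ENSG00000048028, chromosome 11, 113797874 to 113875570, minus strand), which acts on substrates through FBXW7, stood at 55.3 and 56.2 CPM in control cells, 102 and 99.9 with hairpin 1, and 77.1 and 76.3 with hairpin 2. The 3 groups did not overlap. USP28 rose 1.81-fold with hairpin 1 (0.85, SE 0.04, edgeR adjusted p = 1.6e-06) and 1.38-fold with hairpin 2 (0.46, SE 0.04, edgeR adjusted p = 4.2e-05). Hairpin 2 against hairpin 1 gave -0.39 (SE 0.04, edgeR adjusted p = 8.8e-05). With the offset its values were 0.72 and 0.27, still called. This is the member with the largest change with a single hairpin, and with hairpin 1 it also passed a test for a fold above 1.5 (edgeR adjusted p = 0.00045), as SET did (edgeR adjusted p = 0.04), where 9.44% of all genes passed.

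USP7 (ENSG00000187555, chromosome 16, 8892094 to 8964514, minus strand), the other deubiquitinase, stood at 215 and 219 CPM in control cells, 240 and 248 with hairpin 1, and 239 and 252 with hairpin 2. The knockdown libraries all lay above the controls, by a small margin. It rose 1.13-fold with each hairpin (edgeR adjusted p = 0.011 with hairpin 1 and 0.008 with hairpin 2). With the offset its log2 fold changes were 0.01 and -0.02, and neither was called. The call was also lost with hairpin 1 without replicate 1 of the control (edgeR adjusted p = 0.051) and with hairpin 2 without its own replicate 2 (edgeR adjusted p = 0.076).

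Of the ubiquitin ligases, FBXW7 (ENSG00000109670, chromosome 4, 152320544 to 152536063, minus strand), the ligase that recognises phosphorylated N-Myc, rose more with hairpin 1. It stood at 36.9 and 35.6 CPM in control cells, 58.3 and 59.3 with hairpin 1, and 47.4 and 45.7 with hairpin 2. The 3 groups did not overlap. FBXW7 rose 1.62-fold with hairpin 1 (0.7, SE 0.05, edgeR adjusted p = 1.6e-05) and 1.28-fold with hairpin 2 (0.36, SE 0.05, edgeR adjusted p = 0.00068), a difference of -0.34 (SE 0.05, edgeR adjusted p = 0.001). With the offset it was 0.46 with hairpin 1, still called, and 0.08 with hairpin 2, not called (edgeR adjusted p = 0.25). The antisense gene FBXW7-AS1 shares 1.1% of its exon bases, so the origin of reads over those bases is uncertain.

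HUWE1 (ENSG00000086758, chromosome X, 53532096 to 53686729, minus strand), a large ligase of the HECT type, showed the reverse order. It stood at 282 and 284 CPM in control cells, 316 and 317 with hairpin 1, and 374 and 353 with hairpin 2. HUWE1 was the 1 member that was higher with hairpin 2 than with hairpin 1 in the direct test (0.2, SE 0.04, edgeR adjusted p = 0.0045), a call lost without replicate 1 of hairpin 2 (edgeR adjusted p = 0.062). Against control it rose 1.12-fold with hairpin 1 and 1.28-fold with hairpin 2 (edgeR adjusted p = 0.011 and 0.00015). With the offset, it was not called with either hairpin (-0.07 and 0.1). Without replicate 1 of the control the hairpin 1 call was lost too (edgeR adjusted p = 0.055).

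The kinases divided by hairpin. AURKA (ENSG00000087586, chromosome 20, 56369389 to 56392337, minus strand), the mitotic kinase that shields N-Myc, stood at 99.4 and 94 CPM in control cells, 103 and 109 with hairpin 1, and 79 and 79.9 with hairpin 2. The hairpin 2 libraries lay below both controls and the hairpin 1 libraries above them. AURKA fell 1.22-fold with hairpin 2 (-0.28, SE 0.05, edgeR adjusted p = 0.0014), while under hairpin 1 it missed the threshold (0.13, SE 0.05, edgeR adjusted p = 0.051). The hairpin 1 value is close to the threshold: it passed with other size factors (0.041), with a stricter low-count filter (0.035) and with the offset (0.17, edgeR adjusted p = 0.014). Hairpin 2 against hairpin 1 gave -0.42 (SE 0.05, edgeR adjusted p = 0.00018), and over both together AURKA did not pass (-0.08, SE 0.04, edgeR adjusted p = 0.17). Counts of its 2 named pseudogenes came to 0.115% to 0.69% of its own.

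PLK1 (ENSG00000166851, chromosome 16, 23677656 to 23690367, plus strand), the mitotic kinase that acts against FBXW7, stood at 199 and 187 CPM in control cells, 182 and 198 with hairpin 1, and 131 and 129 with hairpin 2. The hairpin 1 libraries overlapped the controls and the hairpin 2 libraries lay below all others. PLK1 fell 1.48-fold with hairpin 2 (-0.57, SE 0.05, edgeR adjusted p = 5.4e-05) and was at -0.03 with hairpin 1 (SE 0.05, edgeR adjusted p = 0.72), so its fall over both hairpins (-0.3) rests on hairpin 2. The direct test between them gave -0.54 (SE 0.05, edgeR adjusted p = 7e-05). With the offset PLK1 was at -0.34 with hairpin 2 and was called higher with hairpin 1 (0.12, edgeR adjusted p = 0.038). Other annotated genes on the opposite strand, AC008870.3 and ERN2, overlap 12.5% of its exon bases, and its reads are uncertain in part.

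GSK3B (ENSG00000082701, chromosome 3, 119821323 to 120094417, minus strand), the kinase that marks N-Myc for FBXW7, stood at 78.3 and 83.4 CPM in control cells, 103 and 104 with hairpin 1, and 84 and 88.5 with hairpin 2. The hairpin 1 libraries lay well above the controls and the hairpin 2 libraries just above them. GSK3B rose 1.28-fold with hairpin 1 (0.36, SE 0.05, edgeR adjusted p = 0.00037) and did not pass with hairpin 2 (0.09, SE 0.05, edgeR adjusted p = 0.14), a difference of -0.26 (SE 0.05, edgeR adjusted p = 0.0022). With the offset it was called higher with hairpin 1 (0.13, edgeR adjusted p = 0.025) and lower with hairpin 2 (-0.22, edgeR adjusted p = 0.0019), so its direction with hairpin 2 is not settled by these data.

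Counted by hairpin, 7 members rose and 0 fell with hairpin 1, where 49.1% of all genes were called (24.2% higher, 24.9% lower). With the offset the hairpin 1 count was again 7 higher and 0 lower, but with AURKA and PLK1 in place of HUWE1 and USP7, where 50.1% of genes were called (24.5% higher, 25.5% lower). With hairpin 2, 5 rose and 2 fell, where 49.3% were called (23.9% higher, 25.4% lower). With the offset the hairpin 2 count became 2 higher (USP28 and SET) and 4 lower (AURKA, PLK1, GSK3B and CIP2A), where 46.9% of genes were called (21% higher, 25.9% lower). Both comparisons share the control libraries. In the direct comparison 1 member was higher and 6 were lower with hairpin 2 than with hairpin 1, where 46.2% of all genes were called (22.9% higher, 23.3% lower). With the offset these were 1 and 7, SET being the added one, where 51.5% of genes were called (24.6% higher, 26.9% lower). Without the offset the members' median between hairpins was -0.3, beside 0.005 for all genes. At a fold above 1.5, 0 members passed over both hairpins, with hairpin 2 or between hairpins, where 5.55%, 7.46% and 9.47% of all genes passed (edgeR's glmTreat); without that fold the counts were 8, 7 and 7 in edgeR, and DESeq2 gave the same counts.

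The members at opposite ends of 1 step can be set side by side per exon length. AURKA exceeded FBXW7 10.2-fold and 10-fold in control cells, 6.68-fold and 6.99-fold with hairpin 1, and 6.31-fold and 6.63-fold with hairpin 2. The ratio of PLK1 to FBXW7 was 12.6 and 12.2 in control cells, 7.26 and 7.77 with hairpin 1, and 6.46 and 6.61 with hairpin 2. In each knockdown library both ratios lay under the control range. FBXW7 was higher with both hairpins, and the kinases were lower with hairpin 2. USP28 and FBXW7 both rose. Their ratio was 2.91 and 3.06 in control cells, 3.38 and 3.27 with hairpin 1, and 3.16 and 3.24 with hairpin 2. This ratio lay above the control range in each knockdown library. USP7 exceeded HUWE1 1.67-fold and 1.68-fold in control cells, 1.66-fold and 1.71-fold with hairpin 1, and 1.4-fold and 1.56-fold with hairpin 2. These ratios are descriptions of transcripts without a test, and the GC content and length trend runs through them.

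Transcripts of MYCN (ENSG00000134323), which encodes N-Myc, stood at 2251 and 2271 CPM in control cells, 1821 and 1828 with hairpin 1, and 1702 and 1816 with hairpin 2. All 4 knockdown libraries lay below both controls. MYCN fell 1.24-fold with hairpin 1 and 1.29-fold with hairpin 2 (edgeR adjusted p = 0.00038 and 0.00016), and with the offset it was not called (-0.07 and -0.06, edgeR adjusted p = 0.17 and 0.23).

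AURKA and PLK1 are made mainly in G2 and mitosis, so 20 other G2/M markers were read beside them. Their summed level was 3158 and 3273 CPM in control cells, 3952 and 4000 with hairpin 1, and 2737 and 2721 with hairpin 2. In the direct comparison of the hairpins 0 of 20 markers were higher and 18 were lower with hairpin 2, with a median log2 fold change of -0.5. Of all genes, 22.9% were higher and 23.3% lower. The marker counts were the same with the offset, where 24.6% of genes were higher and 26.9% lower. AURKA (-0.42), PLK1 (-0.54) and CIP2A (-0.58) moved the same way in that comparison and lay within the markers' range of -1.1 to -0.03. So did FBXW7 (-0.34), GSK3B (-0.26), USP28 (-0.39) and SET (-0.05), so that range does not set the 3 apart from other members. HUWE1 (0.2), USP7 (0.01) and PPP2R5A (0.11) lay outside it. Against control the list split: 12 rose and 3 fell with hairpin 1, where 24.2% of all genes rose and 24.9% fell. With hairpin 2, 3 markers rose and 13 fell, where 23.9% of all genes rose and 25.4% fell. With the offset 11 rose and 3 fell with hairpin 1, where 24.5% of genes rose and 25.5% fell. Under hairpin 2 with the offset 0 rose and 17 fell, where 21% of genes rose and 25.9% fell. Over both hairpins 6 rose and 7 fell, with a median of 0.01, where 23.6% of all genes rose and 26.4% fell. With the offset 3 rose and 10 fell over both hairpins, with a median of -0.1, where 21.1% of genes rose and 26.6% fell. Without the offset, the examples with the smallest p over both hairpins were CENPA, the centromere histone (-0.63), and CENPE, a kinetochore motor (0.7). PRC1, which bundles spindle microtubules (-0.37), came next. CENPE with hairpin 2 turned from 0.34 to -0.08 with the offset, and PRC1 overlaps other genes over 58.4% of its exon bases. Whether a different share of cells in G2 and mitosis bears on the values of AURKA, PLK1 and CIP2A was not tested. TTTGAA, shown above for PLK1, was found before a start of 12 of the 19 markers with a promoter sequence (63.2%), against 16.1% of all genes.

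**Figure D4:**
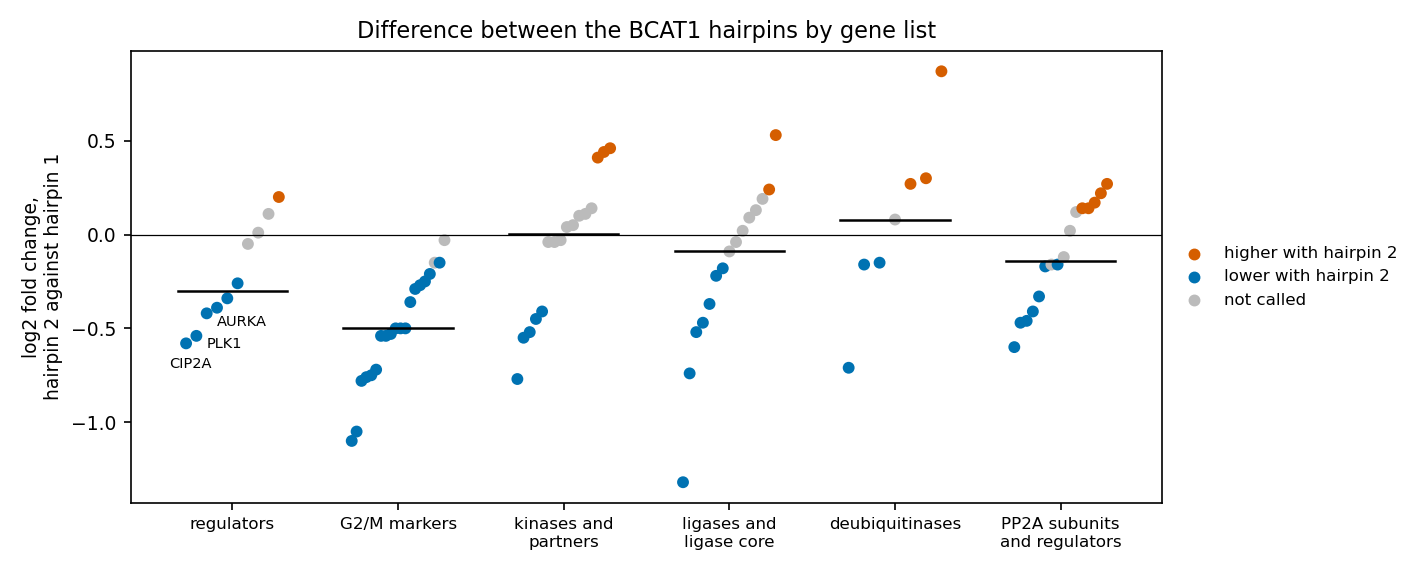
Log2 fold change of hairpin 2 against hairpin 1 for the regulators, for G2/M markers and for 4 lists of related genes. Each point is a gene, coloured by whether it was called, and black lines are medians. The medians are -0.3 for the regulators and -0.5 for the G2/M markers, and AURKA, PLK1 and CIP2A are labelled.

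Other genes of the same pathway were read from lists made for each role. Of 16 further kinases and partners, 5 rose and 8 fell over both hairpins (median -0.13), where 23.6% of all genes rose and 26.4% fell. This list also holds genes that act in mitosis, and some of these, AURKB among them, are in the count that fell. With the offset 1 rose and 10 fell, where 21.1% of genes rose and 26.6% fell. PDPK1, which activates the AKT kinases upstream of GSK3B, had 54.1 and 52.6 CPM in the controls, 77.8 and 83.4 under hairpin 1 and 87.3 and 89.7 under hairpin 2, a rise (0.66, SE 0.04, edgeR adjusted p = 9e-06). Its call held with the offset (0.53). AURKB, the other mitotic Aurora kinase, went the way of AURKA: it stood at 70.1 and 70.7 CPM in control cells, 67 and 68.4 with hairpin 1 and 39.7 in both hairpin 2 libraries, a difference between hairpins of -0.77 (SE 0.05, edgeR adjusted p = 4.4e-06). With the offset AURKB was called higher with hairpin 1 (0.17) and lower with hairpin 2 (-0.55). Exons of PDPK1 overlap other genes over 23.7% of their bases, so its reads are uncertain in part.

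Of 15 ligases and ligase core subunits, 2 rose and 5 fell over both hairpins (median -0.01), where 23.6% of all genes rose and 26.4% fell. Each hairpin alone gave more calls. With hairpin 1, 6 rose and 6 fell, where 24.2% of all genes rose and 24.9% fell. With hairpin 2, 2 rose and 8 fell, where 23.9% of all genes rose and 25.4% fell. FBXO28, an F-box protein of another MYC ligase, rose from 35.5 and 38.3 CPM to between 66.5 and 71.4 in the knockdown libraries (0.9, SE 0.06, edgeR adjusted p = 6.2e-06), and was still called with the offset (0.64). STUB1, a chaperone-linked ligase, changed by -0.53 (SE 0.04) and NEDD8, the modifier that activates cullin ligases such as that of FBXW7, by -0.57 (SE 0.06). The edgeR adjusted p-values were 2.1e-05 and 6.1e-05. With the offset STUB1 was at -0.15 and NEDD8 at -0.68. Exons of STUB1 overlap JMJD8 over 42.4% of their bases and NEDD8 shares 13.4% with others, including a read-through gene, so their reads are uncertain in part.

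Among 7 further deubiquitinases 3 rose and 2 fell over both hairpins (median 0.07), where 23.6% of all genes rose and 26.4% fell. USP22, part of the SAGA complex, separated the hairpins more than any other gene of this list: it stood at 201 and 191 CPM in control cells, 109 and 111 with hairpin 1, and 198 and 203 with hairpin 2 (difference between hairpins 0.87, SE 0.04, edgeR adjusted p = 1.5e-06). USP36, a nucleolar deubiquitinase, rose with both hairpins (0.51 and 0.36), and USP37 rose with hairpin 1 (0.93, edgeR adjusted p = 7.1e-05) and did not pass with hairpin 2 (0.22, edgeR adjusted p = 0.089). With the offset the USP37 values were 0.65 and -0.17. USP22 overlaps other genes over 13.2% of its exon bases and USP37 over 32.8%.

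Among 16 PP2A subunits and regulators 4 rose and 6 fell over both hairpins (median -0.09), where 23.6% of all genes rose and 26.4% fell. PPME1, the methylesterase that inactivates the catalytic subunit, rose by 0.34 (SE 0.04, edgeR adjusted p = 1e-04). With the offset PPME1 was at 0.15 over both hairpins, still called, and with hairpin 2 it was not called (0.04, edgeR adjusted p = 0.47). PPP2R1B, a scaffold subunit, changed by -0.3 (SE 0.03, edgeR adjusted p = 0.00013) and was at -0.52 with the offset. PPP2R5D, a relative of PPP2R5A, stood at 141 and 148 CPM in control cells, 137 with both hairpin 1 libraries, and 99.8 and 98.8 with hairpin 2. It fell with hairpin 2 (-0.54, edgeR adjusted p = 2e-05) and did not pass with hairpin 1 (-0.07, edgeR adjusted p = 0.19). Over both hairpins its call was lost with the offset (-0.09, edgeR adjusted p = 0.077), and it overlaps MEA1 over 36% of its exon bases.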

How the data were processed

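The authors deposited raw read counts for each Ensembl gene in 6 libraries. Per the submitters' processing notes the tools were HISAT2 2.2.0 and StringTie and the build hg38. Sources used here give neither annotation release nor strand setting. Genes were filtered with filterByExpr (minimum count 10), which kept 18734, and scaled with TMM (factors 0.96 to 1.035). edgeR 4.0.16 in R 4.3.3 fitted 1 quasi-likelihood model to all 6 libraries with a term per group (3 residual degrees of freedom), with Benjamini-Hochberg adjustment across the tested genes and a threshold of 0.05. Values are CPM or log2 fold changes with standard errors from the F statistic. The offset was each library's loess trend (span 0.5) of log2 level, as deviation from the mean over libraries, on the longest transcript's GC content and the log2 of exon length. Alternatives were RLE factors, other filters, DESeq2 1.42.0, limma-voom (limma 3.58.1), a replicate term, only the groups compared, a fold of 1.5 and each library left out. The script was tested on simulated data.

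The members and lists were chosen with earlier results of these data known. Named were the 10 members, BCAT1 and MYCN, and per related list the 3 genes with the smallest p over both hairpins among those called, except that 1 such gene is not reported here; FBXL16 and BTRC, among the ligases, are named in the closing section and were chosen after their values were seen. Replicates differed by more than counting noise (mean chi-square per gene 5.45 to 7.98; counting noise would give 1), and all were kept as separate libraries. Their log2 CPM correlated at 0.988 to 0.989 across genes.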

Additional observations from a re-analysis of the deposited data

Results flagged for a closer look

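For 7 of the 10 members the direct test between the hairpins passed, so their response differed between the 2 BCAT1 knockdowns. The log2 fold changes of hairpin 2 against hairpin 1 were -0.42 for AURKA, -0.54 for PLK1, -0.34 for FBXW7, -0.26 for GSK3B, -0.39 for USP28, -0.58 for CIP2A and 0.2 for HUWE1. BCAT1 itself differed by 1.03, with more left under hairpin 2, and 46.2% of all tested genes differed between the hairpins at the same threshold.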

How the results depend on the processing

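The counts of members called were 8 over both hairpins, 7 with hairpin 1, 7 with hairpin 2 and 7 between hairpins. Of all genes, 50%, 49.1%, 49.3% and 46.2% were called in these comparisons. Each library was also left out in turn, which leaves 1 library in a group, so no counts are given for those fits. With the GC content and length offset the count over both hairpins was 4, where 47.6% of genes were called. It was also 4 with the replicate block added to the offset, where 46.6% were called. Asking for a fold above 1.5 gave 0, 2, 0 and 0, where 5.55%, 9.44%, 7.46% and 9.47% of all genes passed. The offset turned GSK3B (-0.04 over both hairpins, -0.22 with hairpin 2), USP7 (-0.01 and -0.02), PLK1 with hairpin 1 (0.12) and HUWE1 with hairpin 1 (-0.07), and with the replicate block and the offset GSK3B (-0.04 and -0.22), USP7 (-0.01 and -0.02) and HUWE1 (-0.07) were as without the block; the cause was not tested. RLE factors, other filters, DESeq2, limma-voom and only the groups compared turned no member and kept every count within 1 of the reported one. The share of all genes called was less steady. It ran from 23.1% (no low-count filter, between hairpins) to 59.9% (CPM of at least 1 in 2 libraries, over both hairpins). Same-numbered replicates did not deviate together (correlations -0.04 to 0), so the numbers do not pair the libraries. The replicate block alone gave 8, 7, 7 and 7 calls, where 48%, 47%, 47.2% and 43.9% of all genes were called.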

Other observations

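Ligase genes outside the members also separated the hairpins. FBXL16, an F-box protein, rose with hairpin 1 (log2 fold change 0.47 with SE 0.09, edgeR adjusted p = 0.0024) and fell with hairpin 2 (-0.85, SE 0.09, edgeR adjusted p = 0.00011), a difference of -1.32 (SE 0.09, edgeR adjusted p = 9.7e-06). BTRC, the F-box protein beta-TrCP, which competes with FBXW7 in ubiquitin chains on MYC proteins, differed by -0.74 (SE 0.08, edgeR adjusted p = 1e-04). Both genes kept these differences with the GC content and length offset (-1.23 and -0.78).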
